A study of Homo sapiens with 6 samples.

Results

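Occupancy of the zinc-finger transcription factor MYT1L was described at 9 genes that encode regulators of dorsal cortical progenitors and excitatory neurons: PAX6, EMX1, EMX2, LHX2, EOMES, TBR1, FEZF2, BCL11B and CUX2. They were taken as a named list, out of 20037 protein-coding genes on chromosomes 1 to 22, X and Y. For each gene, the peaks that touched the gene body or the 5 kb on either side of it (the gene window) were collected. The data came from CUT&RUN, in which an antibody steers a nuclease to a chromatin protein and the released DNA is sequenced. The cells were wild-type H1, a human embryonic stem cell line, at day 30. Per the series' design they had been differentiated to cortical interneurons, while the sample labels give embryonic stem cells as the cell type. MYT1L antibody was used in 4 libraries and IgG, which has no chromatin target, in 2. All groups share this 1 line and this day, so no other line, genotype or stage stands beside them, and passage is given only as a range common to all samples. The lists hold peaks and no RNA levels, so the cell type was not checked against marker expression. Nothing in the labels says whether replicates were separate differentiations, and spread between them may be technical.

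The dorsal telencephalon gives rise to the excitatory neurons of the cortex, whereas cortical interneurons are born in the ventral telencephalon and migrate in. PAX6, EMX1, EMX2 and LHX2 act in dorsal progenitors, EOMES marks the intermediate progenitors that follow, and TBR1, FEZF2, BCL11B and CUX2 act in the neurons of the cortical layers. MYT1L is expressed in neurons and is known as a repressor of genes that do not belong to the neuronal state.

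All 9 genes had a MYT1L peak in at least 1 library, and none had a peak of either IgG library. Having a MYT1L peak somewhere in the window was common, at 84.1% of all protein-coding genes, and an IgG peak was rare, at 4.16%. The 9 windows together held 13, 3, 9 and 14 peaks of MYT1L replicates 1 to 4, a mean of 9.75 ± 4.99 (SD, n = 4), against 0 in each IgG library. MYT1L replicate 2 was thus low and replicates 1 and 4 were high, and the MYT1L and IgG groups did not overlap. Replicate 1 had a peak at 9 of the 9 genes (68.0% of all genes), replicate 2 at 3 (43.0%), replicate 3 at 4 (57.3%) and replicate 4 at 7 (77.6%). Of all genes, 1.61% had a peak of IgG replicate 1 and 2.90% one of IgG replicate 2. The 39 MYT1L peaks joined by overlap into 23 regions, of which 12 came from 1 library, 6 from 2 and 5 from 3. No region was shared by all 4. Of all 49028 regions, 58.1% came from 1 library, 16.9% from 2, 12.9% from 3 and 12.1% from 4. Regions in 3 or more libraries thus made up 21.7% at the 9 genes and 25.1% overall. A region present in 3 or more MYT1L libraries and free of IgG peaks is called reproducible below. TBR1, BCL11B, LHX2 and CUX2 had one, 4 of 9 genes, while 48.0% of all protein-coding genes had one, so the share in this list was near the background.

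**Figure D1:**
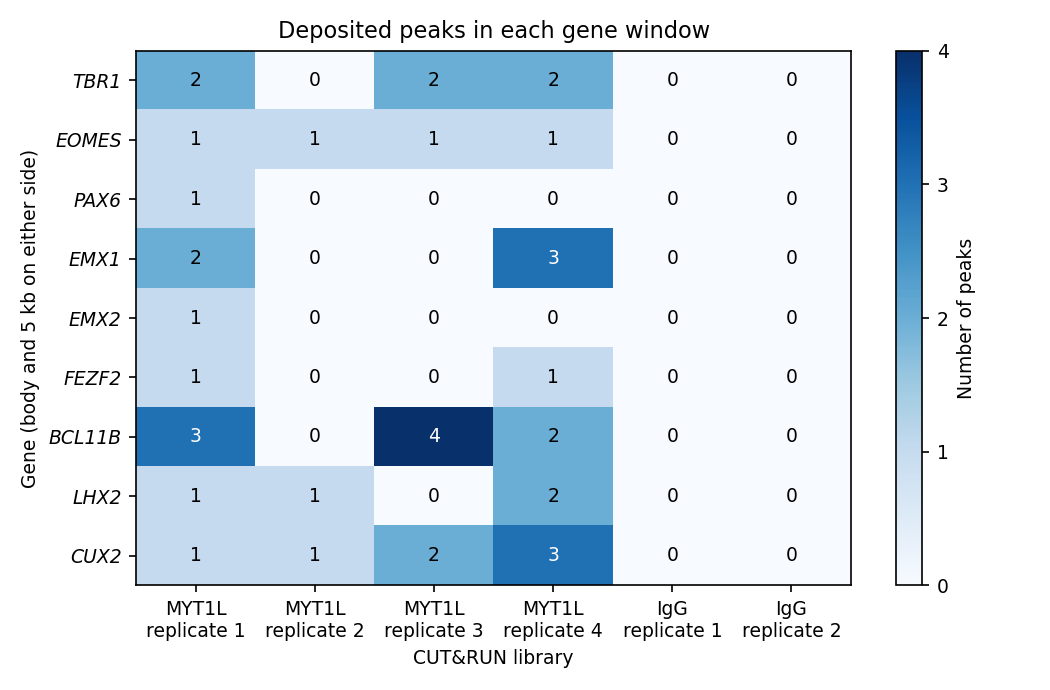
Number of deposited peaks (colour and printed number) in the window of each of the 9 genes (rows) in each CUT&RUN library (columns). Both IgG columns are 0 throughout, MYT1L replicate 1 has a peak in every row, and MYT1L replicate 2 has one in 3 rows.

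The libraries differed in estimated depth, which bears on how weak a peak can be called. Total read numbers are unknown, so the genome-wide background of each list was taken as the estimate of depth and was not checked against read numbers. The number of fragments over a summit (the pileup) and the local background were recovered from each deposited fold and p. The genome-wide background was 1.18, 0.421, 1.05 and 0.895 fragments per position in MYT1L replicates 1 to 4, and 0.329 and 0.190 in IgG replicates 1 and 2. When the peaks at these 9 genes were thinned to the depth of MYT1L replicate 2, an expected 2.97 of 13 from replicate 1, 3.65 of 9 from replicate 3 and 6.53 of 14 from replicate 4 would still have been called, beside the 3 observed in replicate 2. Thinned to IgG replicate 1 the MYT1L libraries would have kept 1.16, 0.728, 1.59 and 3.42 peaks in replicates 1 to 4. Thinned to IgG replicate 2 they would have kept 0.431, 0.210, 0.647 and 1.23. A thinned peak counted as called when it reached the lowest −log10 p of the list it was thinned to. That cut-off was 4.73 in MYT1L replicate 2, and 5.54 and 5.58 in IgG replicates 1 and 2. At the depth and cut-off of the IgG libraries most of these peaks would thus not have been called even at MYT1L strength. Some would have been, up to an expected 3.42 of 14 from replicate 4 at the depth and cut-off of IgG replicate 1. Whether IgG signal of that strength would have been called at a given gene was not worked out. The parts of depth and of cut-off were not separated.

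Among the progenitor genes, LHX2 had a reproducible region and PAX6, EMX1 and EMX2 did not. LHX2, a LIM-homeodomain factor that specifies cortical identity, lies on chromosome 9 from 124011768 to 124033301. Its reproducible region (124011568 to 124012024, 457 bp) spanned the annotated transcription start. It was also the 1 reproducible region of the list with a peak of MYT1L replicate 2. The fold over background was 4.02 in replicate 1, 4.34 in replicate 2 and 5.14 in replicate 4, with a mean of 4.50 ± 0.579 (SD, n = 3), and replicate 3 had no peak. Replicate 4 stood highest, with a pileup of 38 fragments over a background of 6.58. The pileup was 18 over 3.73 in replicate 1 and 10 over 1.53 in replicate 2. The −log10 q of 13.98 in replicate 4 was the highest of all 39 peaks, against 4.79 in replicate 1 and 3.08 in replicate 2. Summits lay 32 and 130 bp before the start in replicates 1 and 2 and 88 bp after it in replicate 4. A second LHX2 peak, 3079 bp outside the gene on the side of the start, was seen in replicate 4 alone, with a fold of 3.46, the lowest in the list. It overlapped the noncoding gene LHX2-AS1, whose window also held the reproducible region.

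The 250 bases before the LHX2 start are shown because they are the one such stretch covered by peaks of 3 libraries. The sequence is from RefSeq (GRCh38.p14, chr9:124011518-124011767, plus strand), and the capitals mark the 114 bases inside the peaks of all 3.

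LHX2: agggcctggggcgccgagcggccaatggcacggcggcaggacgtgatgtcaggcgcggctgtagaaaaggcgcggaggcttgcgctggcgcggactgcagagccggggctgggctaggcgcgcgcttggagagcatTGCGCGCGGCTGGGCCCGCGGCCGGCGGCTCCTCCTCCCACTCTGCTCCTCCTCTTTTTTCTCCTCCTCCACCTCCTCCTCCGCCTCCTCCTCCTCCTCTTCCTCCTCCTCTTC

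This stretch is 70.4% G and C, and the covered part is rich in runs of C and T. The sequence AAGTT, the core recognised by the MYT1 family, was searched on both strands (AACTT on the other) in the 250 bases before each annotated start, and had no match here. Of all 34943 such stretches in the RefSeq table, 30.3% held a match. Of the 16 belonging to 7 genes of the list, 5 did (31.3%). PAX6 alone accounts for 9 of the 16 and for most of the 5 matches, so this share rests largely on that gene. The longer AAAGTTT, which contains AAGTT, was in 3.75% of all stretches and in 0 of the 16. A match is a string of letters and not a site of binding.

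PAX6, the paired-box and homeodomain factor of dorsal radial glia, spans chromosome 11 from 31789026 to 31817961 and had no MYT1L peak within the gene. Its 1 peak (31819913 to 31820432) came from MYT1L replicate 1, 1952 bp outside the gene beyond the start farthest upstream, and overlapped PAX6-AS1. The fold was 3.88 and the −log10 q 3.23, with a pileup of 12 over a background of 2.35. That fold exceeded 13.3% of the peaks in the same library, so it was a weak peak. None of the 9 annotated PAX6 starts had a peak in the 250 bases before it, although 3 of these stretches held the core. At the outermost start (chr11:31817967-31817991, minus strand) the core in capitals and its surroundings read as follows.

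PAX6: atattaaggaAAGTTagcgcctgcc

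EMX1 and EMX2 are homeodomain paralogs that pattern the dorsal telencephalon. EMX1 (chromosome 2, 72916189 to 72934891) had 4 regions, of which 3 were in 1 library each. The fourth (72916061 to 72916489) crossed the lower-coordinate end of the gene and was called in replicate 1 with a fold of 5.52 and in replicate 4 with 4.03. The peak of replicate 1 rested on 21 fragments over 2.98 and that of replicate 4 on 15 over 2.97. The −log10 q was 8.45 and 4.40. Peak numbers at EMX1 were 2, 0, 0 and 3 in MYT1L replicates 1 to 4, so the gene was called in the libraries with the longest peak lists and in neither of the other 2. EMX2 (chromosome 10, 117542746 to 117549546) had 1 peak, in replicate 1 only, 664 bp after its start (117543410 to 117543671) where the antisense gene EMX2OS overlaps it. Its fold was 3.69 and its −log10 q 2.76, from 11 fragments over a background of 2.25.

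EOMES, also called TBR2, is the T-box factor of intermediate progenitors and lies on chromosome 3 from 27715953 to 27722713. It had exactly 1 peak in every MYT1L library, but they fell in 3 separate regions. EOMES and CUX2 were the 2 genes of the list with a peak somewhere in the window in all 4 libraries (32.8% of all genes). Replicates 1 and 4 shared one (27721510 to 27721975) that lay 348 bp downstream of the annotated start, with folds of 4.04 and 4.70. Replicate 3 had its peak across the start (27722174 to 27722492), with a fold of 4.89. The peak of replicate 2 (27715354 to 27715567, fold 4.71) lay 386 bp beyond the opposite end of the gene. Pileups were small in all of them, at 10, 11, 10 and 6 fragments in the order just given. The intervals near the start were thus adjacent but did not overlap, and EOMES was not called reproducible. The 25 bases around the AAGTT core that lay inside the replicate 3 peak are shown because it was the 1 core match of the list covered by a peak (chr3:27722386-27722410, minus strand, core in capitals, its first base 77 bp before the start).

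EOMES: gaggaaggggAAGTTaccttcccct

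**Figure D2:**
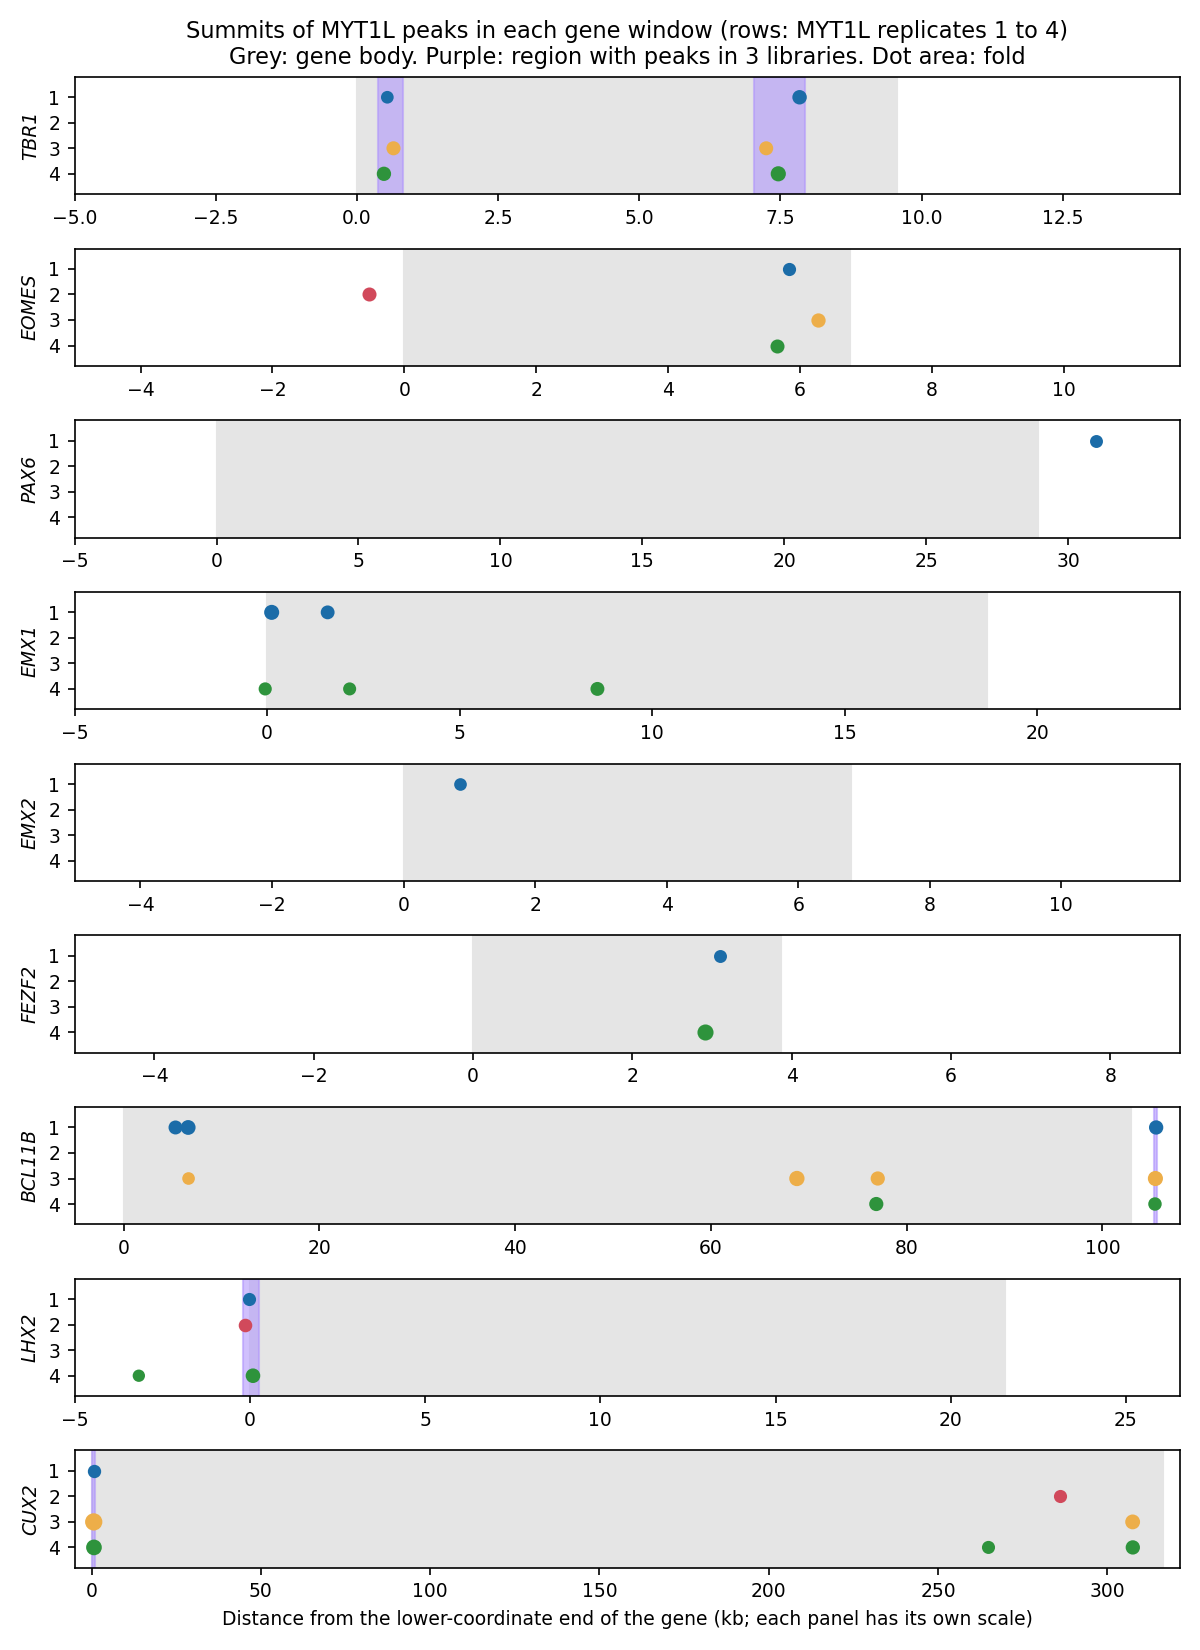
Summits of MYT1L peaks in the window of each gene, as the distance in kb from the lower-coordinate end of the gene (horizontal axis, each panel with its own scale), in MYT1L replicates 1 to 4 (rows). Grey marks the gene body, purple the regions with peaks in 3 libraries, and dot area is proportional to fold. The summits in the reproducible region of LHX2, in that of CUX2 and in the first TBR1 region gather near the start, other summits of CUX2 and LHX2 lie away from it, and PAX6 has no summit inside the gene.

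Of the neuronal genes, TBR1 had the most reproducible regions. TBR1 is the T-box factor of deep-layer cortical neurons, on chromosome 2 from 161416297 to 161425870. It had 2, 0, 2 and 2 peaks in MYT1L replicates 1 to 4, and the 6 peaks formed 2 regions, each shared by replicates 1, 3 and 4. The first (161416667 to 161417110) began 370 bp after the start. Its folds were 3.70, 4.73 and 4.92 in replicates 1, 3 and 4, a mean of 4.45 ± 0.656 (SD, n = 3), from 8, 10 and 10 fragments. The −log10 q in replicate 1, 2.26, was close to the lowest in that list, 2.00. The second region (161423324 to 161424228) lay within the gene, 1642 bp from its far end. Folds there were 5.04, 4.67 and 5.63, a mean of 5.11 ± 0.481 (SD, n = 3), from 12, 11 and 12 fragments. Its summits were spread over 591 bp, against 169 bp in the first, and when only summits within 200 bp were joined the second region no longer counted as reproducible. The first region also came within 4950 bp of PSMD14, a proteasome gene on the same chromosome. The 250 bases before the TBR1 start (chr2:161416047-161416296, plus strand) had no peak. They are shown, in lower case throughout, as the stretch beside a reproducible region with the lowest share of G and C, 42.8%, among the genes with such a region near the start.

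TBR1: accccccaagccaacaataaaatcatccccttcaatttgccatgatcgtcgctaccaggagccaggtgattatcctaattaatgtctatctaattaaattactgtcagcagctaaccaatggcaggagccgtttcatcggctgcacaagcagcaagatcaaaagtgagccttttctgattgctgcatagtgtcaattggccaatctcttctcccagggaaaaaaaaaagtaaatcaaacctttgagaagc

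FEZF2, a zinc-finger factor that specifies subcerebral projection neurons, is the shortest gene of the list (chromosome 3, 62369681 to 62373550). Its 1 region (62372365 to 62372835) lay inside the gene and was called in replicates 1 and 4. The folds were unequal, 3.89 in replicate 1 and 6.45 in replicate 4, with −log10 q of 3.24 and 9.46. The 18 fragments in replicate 4 stood over a background of 1.95, and the 12 in replicate 1 over 2.34.

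BCL11B, also called CTIP2, acts in subcerebral projection neurons and is also expressed in other neurons of the forebrain. It spans chromosome 14 from 99169287 to 99272197 and had the most regions, 5, with 3, 0, 4 and 2 peaks in MYT1L replicates 1 to 4. The reproducible one (99274527 to 99274904) lay 2330 bp outside the gene, upstream of the start. It had folds of 4.92, 5.58 and 4.26 in replicates 1, 3 and 4, a mean of 4.92 ± 0.663 (SD, n = 3), from 13, 15 and 16 fragments. The 3 summits fell within 119 bp of each other. Of the 4 regions inside the gene, 2 were shared by 2 libraries. One of these (99175441 to 99176081) had folds of 5.32 in replicate 1 and 3.66 in replicate 3. The other (99246071 to 99246504) had 4.85 in replicate 3 and 4.81 in replicate 4.

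CUX2, a cut-homeodomain factor of upper-layer neurons, is the longest gene of the list (chromosome 12, 111034165 to 111350554) and held the region with the highest fold. That region (111034229 to 111035033, 805 bp) began 64 bp after the first annotated start. Folds were 4.16 in replicate 1, 7.58 in replicate 3 and 6.09 in replicate 4, a mean of 5.94 ± 1.72 (SD, n = 3), and replicate 2 had no peak there. The −log10 q was 3.41, 10.6 and 8.50. Replicate 3 stood highest, with 18 fragments over a background of 1.51 and a fold above 91.1% of the peaks in its list. The value in replicate 1, from 11 fragments over 1.89, exceeded 24.8% of its list. The summits agreed to within 70 bp, between 629 and 699 bp after the start. Peaks elsewhere in CUX2 were sparse. A region 8603 bp from the far end of the gene (111341597 to 111341951) was shared by replicates 3 and 4, with folds of 5.34 and 4.92, and 2 more were in 1 library each. The stretch before the start (chr12:111033915-111034164, plus strand) had no peak and no core match, and at 81.2% G and C it differs in composition from that of TBR1, which is why it is set beside it.

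CUX2: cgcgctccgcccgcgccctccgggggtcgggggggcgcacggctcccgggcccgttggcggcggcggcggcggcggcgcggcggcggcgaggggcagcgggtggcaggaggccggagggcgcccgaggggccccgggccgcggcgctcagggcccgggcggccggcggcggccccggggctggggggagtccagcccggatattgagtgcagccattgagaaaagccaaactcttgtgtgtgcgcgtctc

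**Figure D3:**
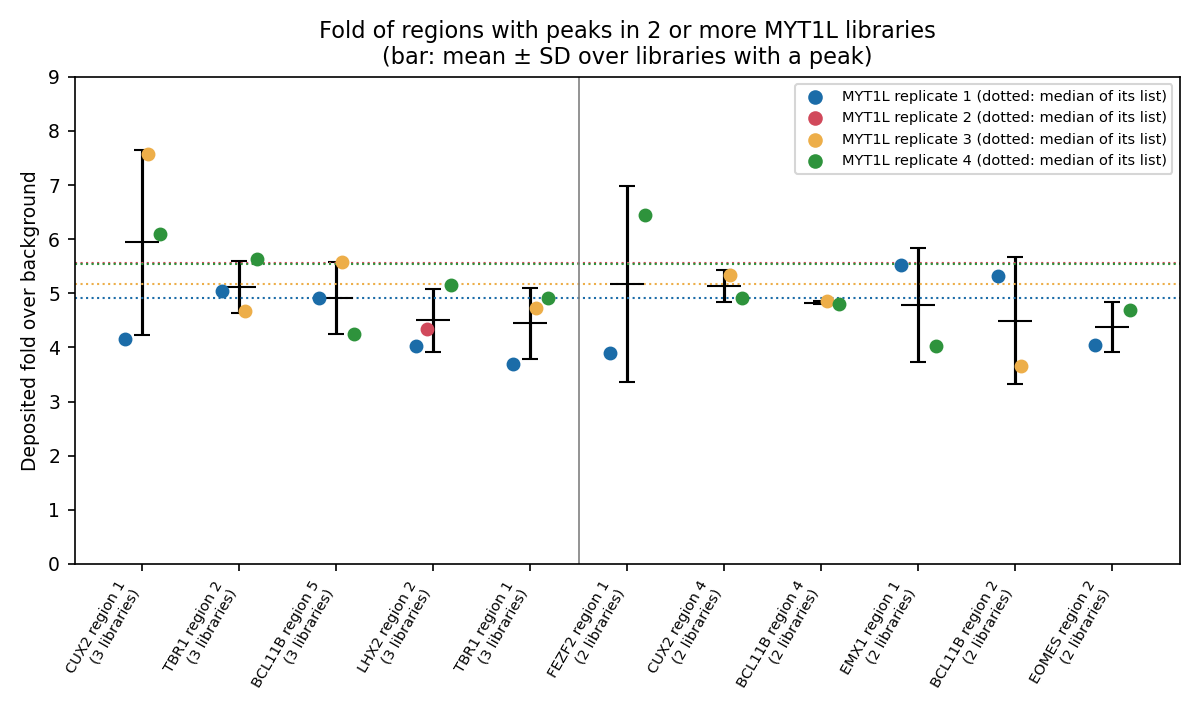
Deposited fold over background (vertical axis) in each library with a peak (points) for the 11 regions found in 2 or more MYT1L libraries, with mean ± SD (bars). Dotted lines give the median fold of each whole list, those of replicates 2 and 4 lying almost on top of each other. CUX2 region 1 has the highest mean, 5.94, and its replicate 1 value of 4.16 lies below the median of that list.

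Taken as strengths within their own lists, the peaks at these genes were mostly weak. The fold is the authors' value for each peak. Over the 39 peaks it ran from 3.46 to 7.58 with a median of 4.70, and 29 lay in the lower part of their list, under its median. By −log10 q, 29 also lay under the median of their list. Pileups ran from 6 to 38 fragments with a median of 12. The 5 reproducible regions lay under the median of their kind by mean fold and by mean −log10 q. Of all 11091 reproducible regions without an IgG peak, 40.1% had a lower mean fold than CUX2 region 1, 16.5% a lower one than the second TBR1 region, 12.1% than that of BCL11B, 5.45% than that of LHX2 and 4.97% than the first TBR1 region. By mean −log10 q the shares in the same order were 34.2%, 10.1%, 14.6%, 32.2% and 0.875%, so LHX2 stood higher by this measure than by fold. The median width was 457 bp for these 5 and 794 bp for all. The set of 11091 also holds regions found in all 4 libraries, whereas each of these 5 was found in 3. These are descriptions of 5 regions, and no test was made.

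The genes were ordered by peak number over the 4 MYT1L libraries. BCL11B had 2.25 ± 1.71 (SD, n = 4), CUX2 1.75 ± 0.957, TBR1 1.5 ± 1 and EMX1 1.25 ± 1.5. LHX2 had 1 ± 0.816, EOMES 1 in each library, FEZF2 0.500 ± 0.577, and PAX6 and EMX2 0.250 ± 0.500 each. No 2 neighbours in this order differed by more than the larger of their SDs. BCL11B and CUX2 are also the longest genes. Per 10 kb of window EOMES had the most regions, 1.79, followed by EMX1 with 1.39 and TBR1 with 1.02, and CUX2 had the fewest, 0.123. The value was 0.380 over the 9 windows together and 0.254 over all protein-coding gene windows. These regions include those of 1 library, and every window includes 5 kb on either side whatever the gene length. Reproducible regions numbered 0.826 per 100 kb over the 9 windows and 0.772 over all. An exact permutation test (two-sided, 6 libraries, 15 arrangements), run for every protein-coding gene, gave p = 0.133 for EOMES and CUX2, the smallest this design allows. The Benjamini-Hochberg adjusted permutation p over all genes was 0.436 for both. The same smallest p was reached by 30.6% of all genes, and the share of genes that passed an adjusted 0.05 was 0, as was the number with an unadjusted p under 0.05, which the design cannot give. TBR1, BCL11B and LHX2 had p = 0.400, with 1 MYT1L library at 0 in each, by the same exact permutation test. The median difference in peak number between MYT1L and IgG libraries was 1 over the 9 genes and 0.750 over all genes.

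How many genes counted depended on the libraries asked for. With a region in 2 or more libraries the number was 7 of 9 (65.3% of all genes), the exceptions being PAX6 and EMX2. With all 4 libraries it was 0 of 9 (25.3% of all genes). Without MYT1L replicate 2, and with 2 of the other 3 libraries required, 7 genes counted (63.3% of all genes), and without replicate 3 also 7 (59.9%). Without replicate 1 the number was 4 (55.4%) and without replicate 4 also 4 (49.3%). With only peaks of a −log10 q of at least 5, none of the 9 kept a reproducible region, while 30.6% of all genes did. Equal numbers of top peaks in each library also left 0, against 33.7%. The shares differed between classes of window length. A reproducible region was found in 34.7% of genes with windows under 30 kb, and in TBR1 alone among the 5 genes of that class. In windows of 30 to 100 kb it was 54.7%, with LHX2 but not PAX6, and over 100 kb it was 67.3%, with both BCL11B and CUX2. A region in all 4 libraries was found in 16.2%, 29.7% and 39.1% of the genes of these 3 classes, and in none of the 9. Within 1 kb of an annotated start, 3 of the 7 genes with starts in the table had a reproducible region (LHX2, TBR1 and CUX2), against 42.2% of all genes with a start. With a region of any library there, 5 of 7 did, against 72.3%.

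**Figure D4:**
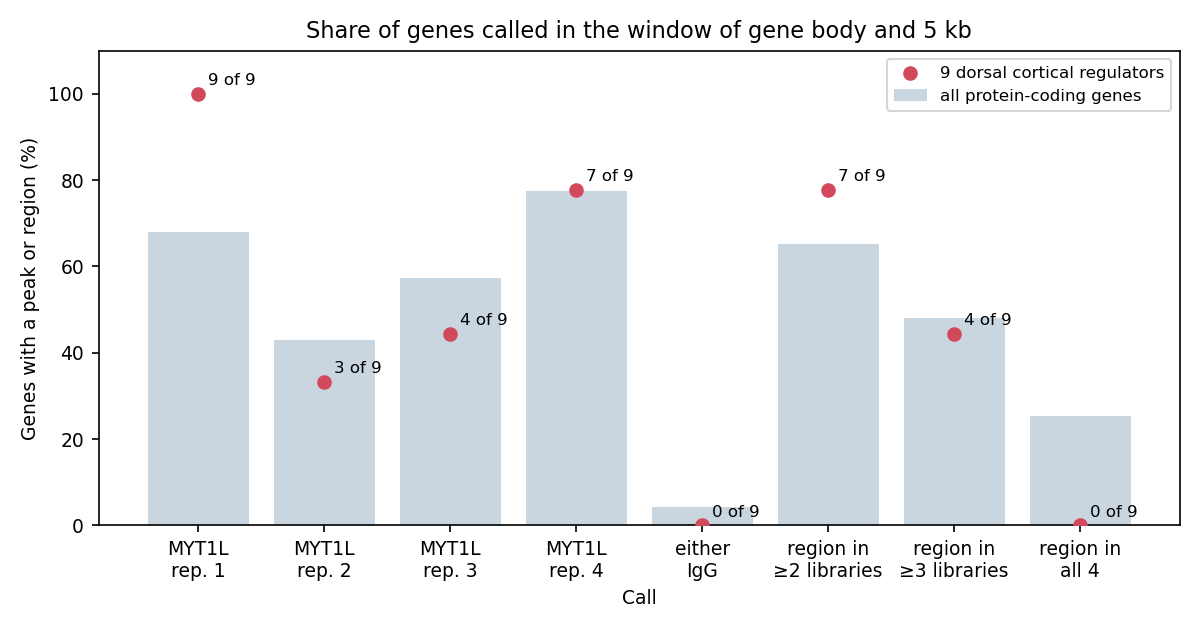
Share of all protein-coding genes (bars, percent) and of the 9 dorsal cortical regulators (points, with the number of genes) that had a peak of each MYT1L library, an IgG peak, or a region in 2 or more, 3 or more, or all 4 MYT1L libraries in the gene window. The points lie on both sides of the bars, with 9 of 9 in MYT1L replicate 1 and 0 of 9 for regions in all 4 libraries.

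Other genes of the dorsal telencephalon and of excitatory neurons were counted for comparison. A reproducible region was found at 13 of these 34 genes (38.2%). A region in all 4 libraries without an IgG peak was found at 5 of the 34, against 25.3% of all protein-coding genes. The highest mean fold among the 5 was at POU3F2, a POU-domain factor of upper-layer neurons (chromosome 6, 98834230 to 98835900), with 6.01, 5.76, 6.53 and 6.80 in replicates 1 to 4. Next came RELN, which encodes the secreted protein reelin, with 5.85 ± 0.791 (SD, n = 4). LMO4, TSHZ3 and DMRT3 had mean folds of 5.34, 4.98 and 4.93. Among regulators of the ventral telencephalon, where interneurons arise, 10 of 26 genes (38.5%) had a reproducible region, and among pluripotency genes 6 of the 20 that matched the gene table. All of these shares lay below the 48.0% of all protein-coding genes, as did that of the 9 genes, 44.4%. The lists were not matched for window length. Median windows were 31.5 kb for the other dorsal genes, 18.4 kb for the ventral regulators and 21.6 kb for the pluripotency genes. The median was 28.7 kb for the 9 genes and 34.1 kb for all genes. Of all genes with windows under 30 kb, 34.7% had a reproducible region. The part of window length in these shares was not tested. A region in all 4 libraries was found at 1 of the ventral regulators and 1 of the pluripotency genes. The difference between lists was not tested.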

How the data were processed

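The series holds CUT&RUN peak lists from H1-derived cells, 4 for MYT1L antibody and 2 for IgG, grouped by the sample titles. Numbers inside the peak names of the MYT1L lists differ from the titles, which were followed. Per the submitters' processing notes, peaks were called with MACS2 on hg38; the aligner, threshold and control library are not given in the sources used here. Each deposited list gives, per peak, the authors' fold over background (a ratio), −log10 p, −log10 q, a score (the −log10 q times 10 without decimals, for 99.99% of peaks or more) and a summit.

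Peaks on chromosomes 1 to 22, X and Y that shared at least 1 bp were joined into regions. Gene windows and starts came from RefSeq tables (GRCh38.p14), which give no exons or introns; all 9 symbols matched, and 7 had a start there (not EMX1 and FEZF2). Pileup and background were solved from fold and −log10 p by the MACS formulas, within 0.0002, for at least 99.98% of peaks with a −log10 p up to 100. Binomial thinning by the ratio of backgrounds, with the lowest −log10 p of the target list as the cut-off, gave expected calls. This assumes those formulas and covers counting error only. Peak numbers per gene were compared by exact permutation with Benjamini-Hochberg adjustment over 20037 genes (Python 3.11.15, scipy 1.17.1). On simulated data all of 1958 pileups were recovered. Regions were checked against bedtools 2.31.1, with 0 differences.

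The 9 genes and the comparison lists were chosen with earlier results of these data known. All 9 were named whatever their values, with each reproducible region and otherwise the best shared one. Further regions were added for completeness. Genes of the dorsal list with a region in all 4 libraries were named, at most 5. Alternatives changed the −log10 q minimum, the window, the number of libraries, the joining rule and the libraries used.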

Additional observations from a re-analysis of the deposited data

Results flagged for a closer look

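Among the 4 MYT1L libraries, 1 library stood apart from the other 3 in the peak number of 3 genes. TBR1 had 0 peaks in MYT1L replicate 2 and 2 in each other replicate. PAX6 and EMX2 had 1 peak each in MYT1L replicate 1 and 0 in the other replicates. These are small whole numbers, in which a step of 1 is enough to set a library apart. The gap was compared with Dixon's critical ratio for 4 libraries, in 10 groups of values. Chance marks about 5% of groups when values are continuous. With whole numbers, any library that differs from 3 equal ones is marked, so that rate does not hold here. Replicate 2 had the lowest and replicate 1 the highest estimated depth of the MYT1L libraries; the part of depth in these values was not tested.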

How the results depend on the processing

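All alternatives were planned. The 4 genes with a reproducible region became 0 when peaks needed a −log10 q of 5 or more, 0 with equal numbers of top peaks, 7 with at least 2 libraries and 0 with all 4. Leaving out 1 MYT1L library, with 2 of the other 3 then required, gave 4 to 7, with 7 without MYT1L replicate 2 and 7 without replicate 3. Leaving out 1 IgG library left 4. The 5 reproducible regions became 0, 0, 11 and 0 under the same 4 settings. They became 6 to 11 without 1 MYT1L library, again with 2 of the other 3 required, highest without replicate 2. Fewer peaks, or another number of libraries asked for, enter these settings by construction. The difference in peak number, 9.75, was 3.25 at that −log10 q and 8.33 to 12 without 1 library. The genes with any MYT1L peak numbered 6 to 9 in all 8 alternatives, against 9 (84.1% of all genes) in the main setting. The share of all genes was not worked out for these alternatives, so the counts have no background beside them. The highest mean fold stayed at CUX2 (5.87 to 6.83) except without replicate 3, when it was 5.33 at TBR1. In 6 of 81 alternatives for single genes the difference fell to 0 (PAX6, EMX2 and EOMES), and none reversed. With the replicate block, numbers 1 and 2 paired, the difference was 8; sign changes of 2 pairs allow no p under 0.500. The labels do not say that a shared number marks a common source. Deviations of same-numbered libraries correlated at 0.0104 and -0.0104 over genes, but with 2 IgG libraries, whose deviations are exact opposites, and few genes with an IgG peak, this cannot tell whether they do. The lower estimated depth and the higher −log10 p cut-off of the IgG lists, together with the number of IgG libraries, limit the IgG comparison.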
